A study of Harpegnathos saltator with 36 samples.

Results

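The small nuclear RNA (snRNA) loci of the ant Harpegnathos saltator were followed 1 at a time through 18 brains. They are the 33 rows of the deposited count table, of 19198 in all, whose ID starts with Hsal_snRNA, and they are written below without the Hsal_ prefix. Their numbers run up to 34. The brains, taken without the optic lobes, came from ants that had dueled for 3 days and were on day 6 of their colony's transition. Nests held 6 such ants, 3 per siRNA, and each ant had Dicer-substrate siRNA (0.5 µl at 5 µM) with a transfection reagent injected into the head 1 day before its brain was taken. In the CrzR siRNA group, 9 brains received siRNA against the corazonin receptor (CrzR), the receptor of a neuropeptide, and in the GFP siRNA group 9 brains received siRNA against GFP, a jellyfish protein with no gene in the ant. Every brain gave 1 library and is 1 replicate. The nest of each brain was not among the values used, and the main tests treated the brains as independent. The count table already sums its 2 sequencing runs. The extent of the knockdown and the identity of the tissue were not checked here, since the files pair no ID with a gene name.

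Small nuclear RNAs are short, stable RNAs that work in the nucleus as the core of small ribonucleoprotein particles. The major ones build the spliceosome, the machine that removes introns from pre-mRNA, and most eukaryotes carry each of them in several nearly identical gene copies. They have no poly(A) tail as a rule. The libraries were made from polyadenylated RNA with random hexamers and the dUTP strand method, so the values describe what passed that selection and not the amount of snRNA in the cells. Neither the files nor the RefSeq table of the species say which snRNA each locus encodes. None of the table's IDs matched that RefSeq table (matches found: 0), which lists 33 snRNA genes of its own. In brain tissue, fewer cells that make an RNA and less RNA per cell cannot be told apart.

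Total counts ran from 9741263 to 24166021 per brain. The snRNA loci together held 149297 counts, or 0.0487% of all counts, with 3045 to 16592 per brain. In CPM, which scales all counts of a brain to 1000000, the snRNA total was 128.5 to 1685 per brain, a 13.1-fold range. In CrzR siRNA brains its lowest, median and highest values were 235, 422 and 1685 CPM, and after GFP siRNA 128.5, 494 and 1625 CPM. The range was wide in both groups, and the groups overlapped. CrzR siRNA replicate 6 at 1685 CPM, GFP siRNA replicate 9 at 1625 and GFP siRNA replicate 7 at 1242 stood above all other brains, of which the highest had 758 CPM. They were also 3 of the 4 shallowest libraries, with 9741263, 10208661 and 11758941 counts.

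Few loci held the reads. The counts of snRNA17, snRNA26 and snRNA30 made up 36.7%, 31.3% and 18.8% of all snRNA counts. Together the 3 loci held between 83.5% and 89.1% of the snRNA counts of every brain, and they were the 3 largest loci in 18 of 18 brains. The next were snRNA31 with 3.79%, snRNA34 with 2.72%, snRNA12 with 2.24%, snRNA16 with 1.81% and snRNA22 with 1.04%. These 8 loci reached 1% of the snRNA counts.

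A further 4 loci passed the filter of a mean of at least 0.5 CPM over all brains. They were snRNA15 with 1016 counts over the 18 brains, snRNA24 with 643, snRNA28 with 332 and snRNA3 with 243. Each of the 12 loci that passed had counts in all 18 brains. Another 15 loci had counts but did not pass, and they held 196 counts in all, or 0.131% of the snRNA counts. The largest of these were snRNA33 with 48 counts in 17 brains, snRNA9 with 37 counts in 13 brains and snRNA14 with 34 counts in 13 brains, and 5 loci had a single count. The remaining 6 loci, snRNA4, snRNA6, snRNA11, snRNA18, snRNA23 and snRNA29, had no count in any brain. A count of 0 over all brains allows up to 3 counts, or 0.00979 CPM, which covers counting error only. Reads of nearly identical copies may have been split between loci or dropped in the authors' counting, so a locus at 0 is not shown to be silent.

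**Figure D1:**
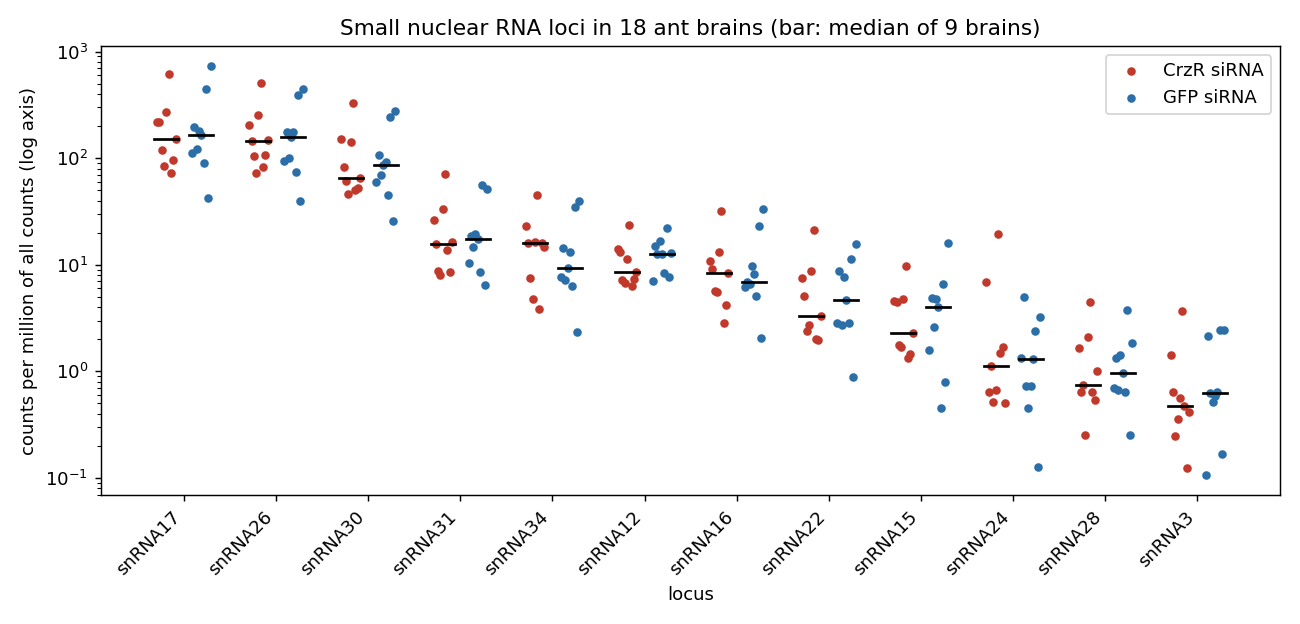
CPM on a log axis for the 12 loci that passed the filter, from the largest to the smallest. Each point is 1 brain, CrzR siRNA left and GFP siRNA right, and the bar is the median of 9 brains. The 3 loci at the left lie above all others in every brain, and the groups overlap at every locus.

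Lengths of the loci, recovered from the deposited RPKM columns, allow counts to be scaled by length. They could be recovered for the 27 loci with a count and ran from 66 to 215 bases. Whether reads rise in proportion to length at loci this short was not tested. The order of loci given below is therefore one of RPKM and not of RNA amount. The leading loci snRNA17 and snRNA26 were both 162 bases long and snRNA30 was 192. The loci snRNA15 and snRNA16 also shared a length. The 5 loci of 106 bases were of very unequal abundance. Among these, snRNA12 had 3339 counts, snRNA19 had 15, snRNA32 had 11, snRNA20 had 7 and snRNA27 had 1.

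On the scale of RPKM (CPM per kilobase of locus length, from the total of the same brain), snRNA17 averaged 1270 ± 1039 after CrzR siRNA and 1423 ± 1345 after GFP siRNA (SD, n = 9 each). The level of snRNA26 was 1113 ± 833 RPKM after CrzR siRNA and 1134 ± 872 after GFP siRNA. The level of snRNA30 was 570 ± 481 RPKM after CrzR siRNA and 584 ± 462 after GFP siRNA. The SDs span much of the means at all 3 loci, so the order of the loci is given within brains. By RPKM, snRNA17 was above snRNA26 in 15 of 18 brains, with a median ratio of 1.13 and a range of 0.879 to 1.64. The level of snRNA26 was above that of snRNA30 in 18 of 18 brains, with a ratio of 1.62 to 2.66. Next in RPKM came snRNA12, snRNA34 and snRNA31, whose order changed from brain to brain. The RPKM of snRNA12 exceeded that of snRNA34 in 11 of 18 brains, and the RPKM of snRNA34 exceeded that of snRNA31 in 10 of 18. By mean RPKM snRNA16 and snRNA22 came next. The RPKM of snRNA16 was lower than that of snRNA31 in 18 of 18 brains, and the RPKM of snRNA22 was lower than that of snRNA16 in 17 of 18.

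The make-up of the snRNA total was similar in brains with little and with much snRNA. The share of snRNA17 in the snRNA total had a lowest, median and highest value of 30.4%, 36.1% and 42.7% after CrzR siRNA, and of 32.7%, 35.9% and 44.7% after GFP siRNA. For snRNA26 the values were 28.5%, 32.4% and 35.5% after CrzR siRNA, and 27.2%, 30.9% and 35.4% after GFP siRNA. For snRNA30 they were 15.6%, 19.0% and 22.4% after CrzR siRNA, and 17.2%, 19.1% and 20.2% after GFP siRNA. The shares of all 3 leading loci thus moved by less than 2-fold, while the snRNA total moved 13.1-fold. The groups overlapped at each of them.

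**Figure D2:**
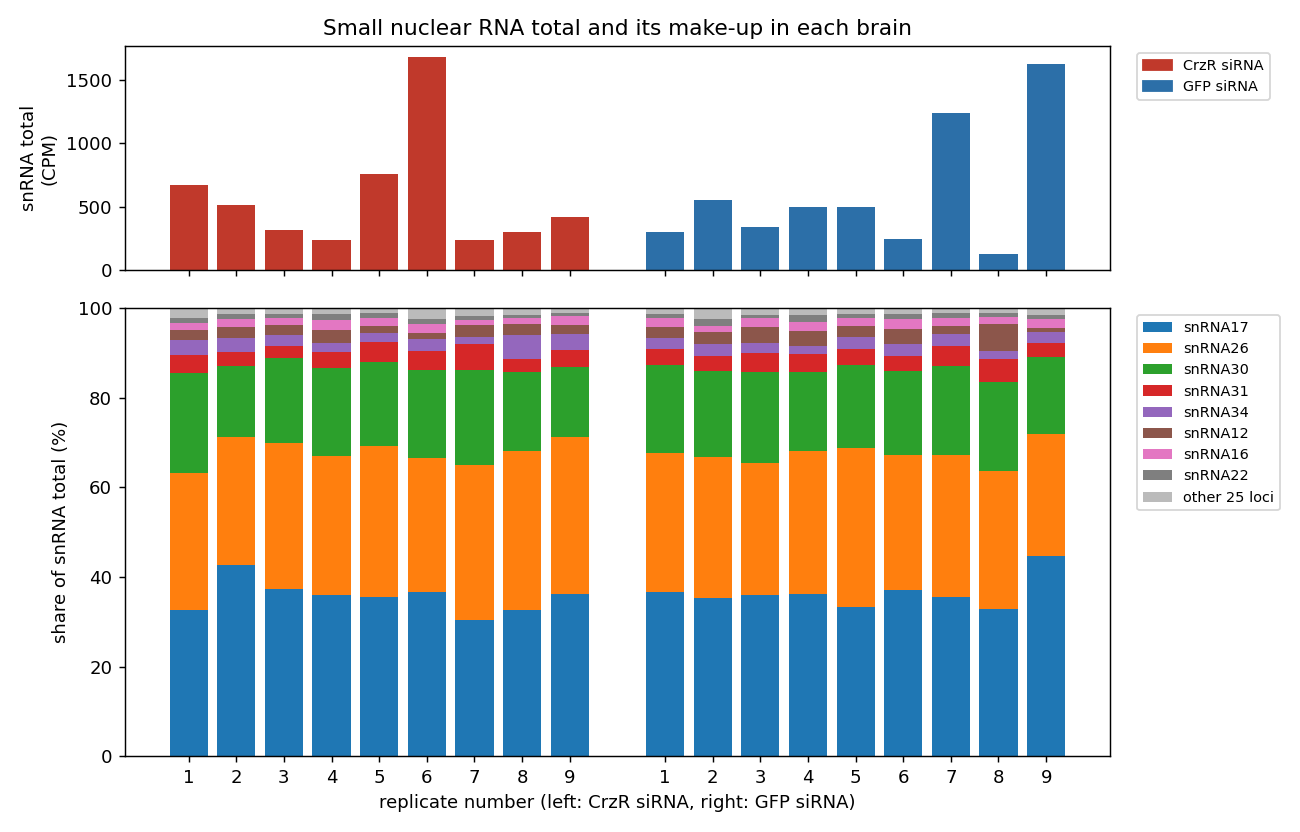
Upper panel: snRNA total in CPM in each brain, CrzR siRNA left and GFP siRNA right. Lower panel: percent of that total held by the 8 largest loci and by the other 25, which shows snRNA17, snRNA26 and snRNA30 at 83.5% to 89.1% together in every brain.

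The smaller named loci varied more in their shares. The share of snRNA31 averaged 3.80 ± 0.946% after CrzR siRNA and 3.85 ± 0.629% after GFP siRNA (SD, n = 9 each). For snRNA34 the shares were 2.91 ± 1.13% after CrzR siRNA and 2.39 ± 0.354% after GFP siRNA, and the highest, 5.37%, was that of CrzR siRNA replicate 8. For snRNA16 they were 1.75 ± 0.337% after CrzR siRNA and 1.83 ± 0.277% after GFP siRNA, and for snRNA22 0.969 ± 0.215% after CrzR siRNA and 1.06 ± 0.314% after GFP siRNA. The share of snRNA12 was 2.19 ± 0.502% after CrzR siRNA and 2.97 ± 1.46% after GFP siRNA. Its lowest and highest shares, 0.802% and 6.01%, both belonged to GFP siRNA brains, replicates 9 and 8, which also had the highest and the lowest snRNA total of that group.

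Each locus was described by the slope of its log2 CPM on the log2 CPM of all other snRNA loci over the 18 brains. A slope of 1 means that its proportion had no trend with the other loci, not that it was equal in every brain. The slope was 1.08 (SE 0.050) for snRNA17, 0.95 (SE 0.037) for snRNA26 and 0.97 (SE 0.040) for snRNA30. It was 0.97 (SE 0.073) for snRNA31, 1.09 (SE 0.10) for snRNA34, 1.04 (SE 0.065) for snRNA16 and 1.14 (SE 0.084) for snRNA22. The 11 loci other than snRNA12 had slopes of 0.95 to 1.21, each within 2 SE of 1. The SEs were widest for snRNA24 (0.31) and snRNA3 (0.22). Their ratios to the other loci ranged 13.3-fold and 11.1-fold over the brains, against 7.91-fold for snRNA12 and 1.47-fold for snRNA26, the lowest. No test was made of these slopes, because the loci share libraries and depth.

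Only snRNA12 had a slope farther than 2 SE from 1, at 0.47 (SE 0.087). This slope stayed between 0.44 and 0.56 when each brain was left out in turn. It was 0.66 among the CrzR siRNA brains and 0.35 among the GFP siRNA brains. In counts, snRNA12 had 119 to 265 per brain, while snRNA17 had 997 to 7417. In CPM, snRNA12 had a lowest, median and highest value of 6.31, 8.47 and 23.4 after CrzR siRNA and 7.10, 12.8 and 22.2 after GFP siRNA. Its CPM thus ranged 3.71-fold over the 18 brains, against 10.9-fold to 153-fold for the other 11 loci. This locus is the shortest of the 12 that passed the filter, at 106 bases. It was singled out after its values were seen.

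The locus snRNA24 was also singled out after its values were seen, because it was the least even. Its slope was 1.13 with an SE of 0.31. In CPM its lowest, median and highest values were 0.506, 1.13 and 19.4 after CrzR siRNA and 0.127, 1.32 and 5.01 after GFP siRNA. It held 1.15% of the snRNA total in CrzR siRNA replicate 6, 1.02% in CrzR siRNA replicate 1 and 0.898% in GFP siRNA replicate 2. In the other 15 brains its share was 0.0875% to 0.619%. The highest values thus occurred in both groups.

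The spread of the proportions between brains is given beside the spread that counting alone would give. The SD over brains of the log2 ratio of a locus to all other snRNA loci was 0.21 for snRNA17, where counting alone would give 0.036. It was 0.64 for snRNA12, where counting would give 0.11, and 1.25 for snRNA24, where counting would give 0.40. At the other end, snRNA28 had 0.45, where counting would give 0.39. The measured proportions of snRNA17, snRNA12 and snRNA24 thus varied between brains by more than counting alone would give. Whether that spread arose in the brains or in the making of the libraries was not tested. At the depth of snRNA28 counting alone would give nearly the whole spread.

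**Figure D3:**
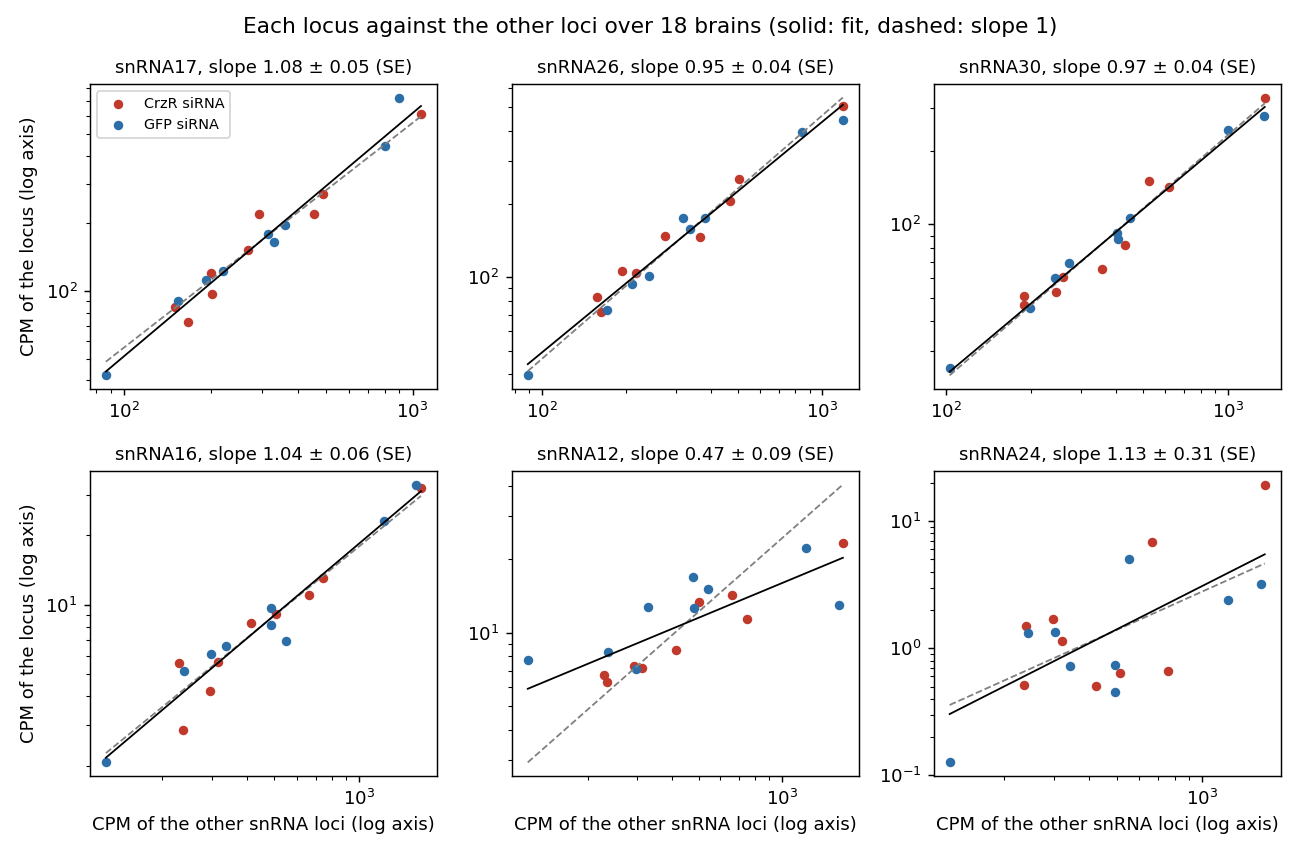
CPM of a locus against the CPM of all other snRNA loci, both on log axes, for 6 loci. Each point is 1 brain, the solid line is the fitted slope and the dashed line a slope of 1. The points of snRNA17, snRNA26, snRNA30 and snRNA16 follow the dashed line, those of snRNA12 rise less steeply (slope 0.47), and those of snRNA24 scatter widely.

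The balance between the leading locus and the others was then set against measures that share no count with it. The ratio of snRNA17 to all other snRNA loci, which ran from 0.438 to 0.808, was compared on the log2 scale with the depth of the library, taken as log2 gene counts. Pearson's r was -0.33 (permutation p = 0.182) and Spearman's rho -0.17 (permutation p = 0.497) over 18 brains. The ratio of snRNA17 to snRNA26 was compared with the CPM of the remaining snRNA loci. There r was 0.37 (permutation p = 0.129), while rho was 0.19 (permutation p = 0.454). The Benjamini-Hochberg adjusted p over these 2 relations was 0.182 for both r and 0.497 for both rho. Without the 2 brains farthest from the median, CrzR siRNA replicate 6 and GFP siRNA replicate 9, r was -0.069 for the first relation and 0.065 for the second. For the first relation r was -0.16 among the CrzR siRNA brains and -0.53 among the GFP siRNA brains, and for the second 0.32 and 0.44. Neither relation was detectable, and the r values of both rested on those 2 brains.

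Depth went with the level of the 12 loci that passed the filter of 0.5 CPM. In an edgeR quasi-likelihood fit over 10710 features with siRNA group and log2 gene counts as terms, 12 of the 12 snRNA loci passed an adjusted p of 0.05, where 53.4% of all features passed. All 12 were lower in deeper libraries, as were 25.8% of all features, and 0 were higher, as were 27.7%. At an unadjusted p under 0.05, 12 of 12 loci and 59.0% of all features passed. The fit tests a slope of 0. A locus with the same count in every library would also have a slope below 0, as given below. Passing therefore does not show that the counts of a locus changed with depth. That the summed snRNA share falls with depth was known beforehand from these brains, so the slopes are given locus by locus as a description of its parts. The log2 change per doubling of gene counts was -2.46 (SE 0.26, adjusted p = 1.07e-06) for snRNA17, -2.24 (SE 0.24, adjusted p = 1.00e-06) for snRNA26 and -2.38 (SE 0.21, adjusted p = 4.41e-07) for snRNA30. The slopes of the 12 loci had a median of -2.43, and those of all features tested had a median of 0.085.

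The slope of snRNA12 on depth was also the shallowest, at -1.32 (SE 0.22, adjusted p = 6.45e-05), with a 95% interval of -1.78 to -0.87. It draws on the same counts as its slope on the other loci, which themselves went with depth, so it is no separate observation. The depth slopes of the other 11 loci lay between -2.81 and -2.15. Gene counts make up nearly all of the library size, which the fit further multiplies by the TMM scaling factor of each brain. On that scale, a locus with the same count in every library would have a slope of -1.25. The interval of snRNA12 includes that value, and the intervals of the other 11 loci lie below it. With library size alone as the scale, a constant count would have -0.99 and snRNA12 had -1.07 (interval -1.51 to -0.63), so a change of its counts with depth was not detectable. Of the other classes of RNA, 10 of 10 transfer RNA loci tested and 18 of 20 ribosomal RNA loci tested were also lower in deeper libraries, with median slopes of -2.67 and -2.30. Of the micro RNA loci tested, 1 of 2 was lower, and their slopes were -1.20 and 0.79. Their part in the slopes of the snRNA loci was not tested. Without CrzR siRNA replicate 6, the shallowest library, 11 of the 12 snRNA loci and 51.0% of all features passed. The exception was snRNA24, with a slope of -1.82 (edgeR adjusted p = 0.056).

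No snRNA locus differed detectably between CrzR siRNA and GFP siRNA. The edgeR fit with group as its only term called 0 of the 12 tested loci at an adjusted p under 0.05, as it did 0% of the 10710 features tested. At an unadjusted p under 0.05 there were also 0 of the 12 loci, where 8.0% of all features were. DESeq2 also called 0 of the 12 loci, where it called 0.0280% of all features, and 0 at an unadjusted p under 0.05, where 10.4% of all features passed. The counts with limma voom were 0 of the 12 loci and 0% of all features, and at an unadjusted p under 0.05 they were 0 of the 12 loci and 7.20% of all features. The groups overlapped in CPM at each of the 12 tested loci, so 0 of them were separated, where 0.00934% of the features tested were.

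The leading locus, snRNA17, had a lowest, median and highest value of 73.0, 153 and 616 CPM after CrzR siRNA and 42.1, 165 and 727 CPM after GFP siRNA. Its log2 fold change was -0.36 (SE 0.54, edgeR adjusted p = 0.745), with a 95% interval of -1.50 to 0.77. For snRNA26 the values were 72.3, 146 and 504 CPM after CrzR siRNA and 39.5, 158 and 442 CPM after GFP siRNA, and the fitted change was -0.21 (log2, SE 0.49, edgeR adjusted p = 0.840, interval -1.24 to 0.82). For snRNA30 they were 46.5, 65.7 and 333 CPM after CrzR siRNA and 25.7, 87.2 and 279 CPM after GFP siRNA, and the fitted change was -0.22 (log2, SE 0.51, edgeR adjusted p = 0.840, interval -1.28 to 0.85). The lowest value of each was in GFP siRNA replicate 8, 1 of the 2 deepest libraries. The highest was in CrzR siRNA replicate 6 or in GFP siRNA replicate 9, the 2 shallowest. The intervals reach past a 2-fold lower level, so the leading loci are not shown to be alike in the groups. Without CrzR siRNA replicate 6 the log2 fold change of snRNA17 was -0.83, and without GFP siRNA replicate 9 it was 0.20.

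The interval was narrowest for snRNA12, the locus that varied least. It averaged 10.9 ± 5.54 CPM after CrzR siRNA and 12.9 ± 4.86 CPM after GFP siRNA (SD, n = 9 each), and the fitted change was -0.37 (log2, SE 0.32, edgeR adjusted p = 0.581, interval -1.03 to 0.29). With log2 gene counts as a covariate the fold change was -0.43 on the log2 scale, with an unadjusted edgeR p of 0.0322 and an adjusted p of 0.157. In that fit 26.0% of all features had an unadjusted p under 0.05.

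The other named loci had values as wide. The lowest, median and highest values of snRNA31 were 7.97, 15.5 and 70.5 CPM after CrzR siRNA and 6.50, 17.4 and 55.6 CPM after GFP siRNA, and its log2 fold change was -0.18 (SE 0.53). The mean of snRNA34 was 16.4 ± 12.4 CPM after CrzR siRNA and 15.01 ± 13.2 CPM after GFP siRNA. Its fitted log2 fold change was -0.067 (SE 0.55), of the other sign than the difference of these means, which carry no TMM scaling. With library size alone as the scale the fitted change was 0.13. For snRNA16 the means were 10.2 ± 8.88 CPM after CrzR siRNA and 11.2 ± 10.1 CPM after GFP siRNA, with a log2 fold change of -0.33 (SE 0.55). For snRNA22 they were 6.12 ± 6.22 CPM after CrzR siRNA and 6.36 ± 4.83 CPM after GFP siRNA, with a log2 fold change of -0.22 (SE 0.58). The smallest edgeR adjusted p of these 4 loci was 0.769, that of snRNA16.

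The small tested loci were as uneven. The mean of snRNA15 was 3.56 ± 2.70 CPM after CrzR siRNA and 4.63 ± 4.72 CPM after GFP siRNA. For snRNA28 it was 1.34 ± 1.32 CPM after CrzR siRNA and 1.29 ± 1.04 CPM after GFP siRNA. For snRNA3 it was 0.884 ± 1.12 CPM after CrzR siRNA and 1.08 ± 0.982 CPM after GFP siRNA. The log2 fold change was -0.58 (SE 0.60) for snRNA15, -0.10 (SE 0.57) for snRNA28 and -0.47 (SE 0.69) for snRNA3. That of snRNA28 had the other sign than the difference of its means, which carry no TMM scaling, and was 0.045 with library size alone. That of snRNA3 was -1.22 without CrzR siRNA replicate 6 and -0.14 without GFP siRNA replicate 9. The difference of the group means was smaller than either SD at all 3.

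The largest fitted change, at snRNA24, rested on a single brain. Its log2 fold change was 1.01 (SE 0.79, edgeR adjusted p = 0.566), with a 95% interval of -0.63 to 2.66. Without CrzR siRNA replicate 6 it was -0.18. It was 0.33 with limma voom and 0.42 with depth as a covariate. Over the 12 loci the median log2 fold change was -0.22, against -0.018 over all features tested. Without CrzR siRNA replicate 6 the median of the loci was -0.69, without GFP siRNA replicate 9 it was 0.16 and without GFP siRNA replicate 7 it was 0.016, with 0 loci called each time. The loci move together from brain to brain, so these 12 values do not stand for 12 separate observations.

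**Figure D4:**
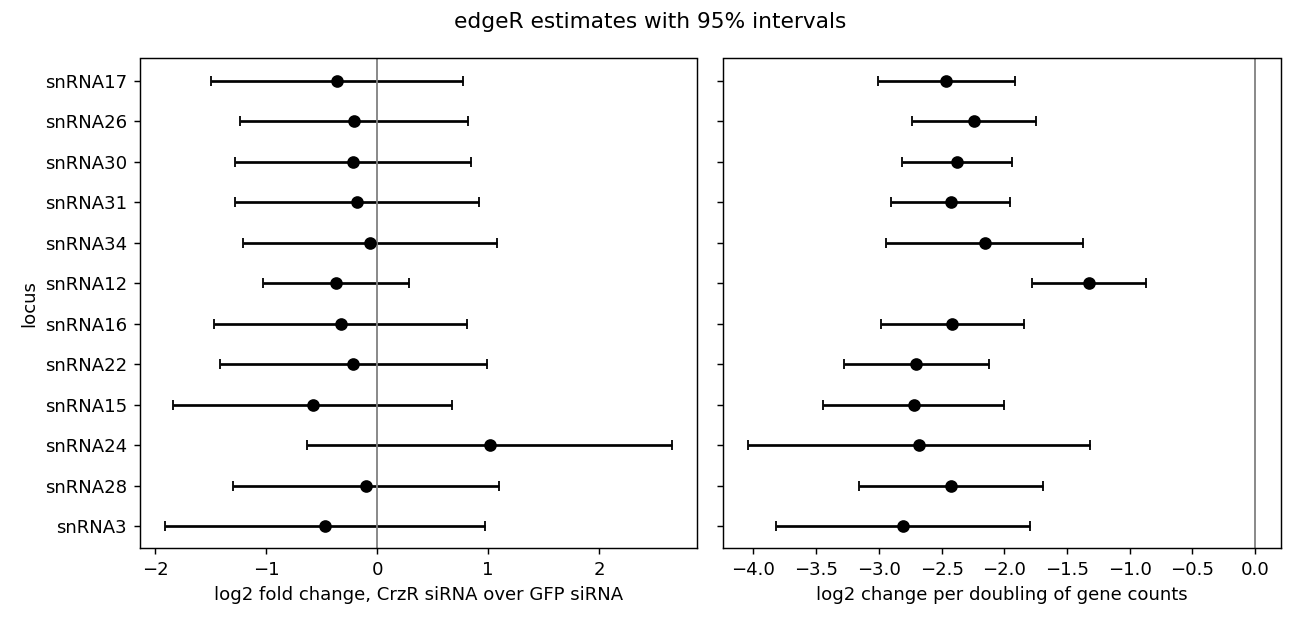
edgeR estimates with 95% intervals for the 12 loci tested. Left: log2 fold change, CrzR siRNA over GFP siRNA, where every interval includes 0. Right: log2 change per doubling of gene counts, where every interval lies below 0 and snRNA12 has the smallest change. A locus with the same count in every library would have -1.25.

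The composition of the snRNA total was compared between the groups by 1 value per brain. The share of snRNA17 averaged 35.6 ± 3.54% after CrzR siRNA and 36.4 ± 3.44% after GFP siRNA (SD, n = 9 each). The difference of -0.805 percentage points was smaller than either SD. It was not detectable in a two-sided exact permutation test over 48620 assignments (p = 0.633). Without GFP siRNA replicate 9 the difference was 0.237 percentage points. The snRNA total without snRNA17 was 366 ± 290 CPM after CrzR siRNA and 373 ± 285 CPM after GFP siRNA. The difference of the mean log2 values, CrzR siRNA minus GFP siRNA, was 0.036 (two-sided exact permutation test, p = 0.939). It was of the other sign than the difference of the CPM means.

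The submitters' internal reference numbers fall into 2 series, in steps of 7 and of 11, which the labels do not explain. The first holds 5 CrzR siRNA and 3 GFP siRNA brains, and the second 4 and 6. The difference in the share of snRNA17 was 0.903 percentage points within the first and -2.63 within the second. For the log2 snRNA total without snRNA17 it was 0.21 within the first and -0.011 within the second. The ratio of snRNA17 to the other loci went with depth at r = 0.20 in the first and -0.55 in the second, and its ratio to snRNA26 went with the remaining loci at r = -0.32 and 0.58.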

How the data were processed

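From polyadenylated RNA of 18 brains, 9 per siRNA, the authors deposited counts, which are whole numbers of reads per feature with no normalization, the 2 runs of a brain added together, per the file headers and the values. The authors also deposited RPKM columns, in which the divisor alternates between odd and even rows and is not the brain's own total, so they served only to recover lengths (within 5.64e-11 of a whole number). STAR 2.5.0b and DESeq2 are named, with no role, per the submitters' processing notes. Genome build, annotation and counter were not given in the sources used here. A deposited table of the authors' fold changes holds no snRNA row and was not used.

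CPM and shares were computed from all counts. edgeR 4.0.16 (quasi-likelihood F test, two-sided, TMM scaling, R 4.3.3) was run on all 10710 features with a mean of at least 0.5 CPM, with Benjamini-Hochberg adjustment over all of them and a threshold of 0.05. SEs and 95% intervals were derived from its F statistic. The steps were tested on simulated data. Alternatives used DESeq2 1.42.0 and limma 3.58.1. Single values were compared by exact permutation, correlations with 100000 resamples. The loci given in full are those with at least 1% of the snRNA counts and any at an unadjusted p under 0.05. The members and lists were chosen with earlier results of these data known. The labels give 1 brain per library, and no 2 brains of a group were alike within sampling noise (smallest chi-square over its degrees of freedom 44.8). Total counts per brain ran from 9741263 to 24166021.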

Additional observations from a re-analysis of the deposited data

Results flagged for a closer look

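Of 48 groups of 9 values examined (CPM and share of the 12 tested loci, per siRNA), 16 held a brain far from the rest, 14 of them in CPM. For normally distributed values chance would mark about 1 in 20 groups. The CPM values were skewed upward, with highest values far above the medians, so that rate does not hold for them. The gaps were judged on CPM and not on log2 CPM, where high values stand out less. The loci also move together, so the marks are not independent. CrzR siRNA replicate 6, the shallowest library, stood apart in CPM at all 12 loci. It had 616 CPM of snRNA17, and the others of that siRNA had 73.0 to 270. It had 504 CPM of snRNA26 (others 72.3 to 254), 333 CPM of snRNA30 (others 46.5 to 151) and 70.5 CPM of snRNA31 (others 7.97 to 33.6). It had 44.8 CPM of snRNA34 (others 3.82 to 23.4), 23.4 CPM of snRNA12 (others 6.31 to 14.2) and 32.2 CPM of snRNA16 (others 2.86 to 13.1). It had 21.4 CPM of snRNA22 (others 1.99 to 8.71), 9.65 CPM of snRNA15 (others 1.32 to 4.83) and 19.4 CPM of snRNA24 (others 0.506 to 6.88). It had 4.52 CPM of snRNA28 (others 0.256 to 2.08) and 3.70 CPM of snRNA3 (others 0.124 to 1.44).

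GFP siRNA replicate 9 had 16.0 CPM of snRNA15, and the others of that siRNA had 0.455 to 6.55. Further, snRNA17 held 44.7% of its snRNA total (others 32.7% to 37.1%). GFP siRNA replicate 7 had 3.74 CPM of snRNA28 (others 0.253 to 1.86). In CrzR siRNA replicate 8, snRNA34 held 5.37% of the snRNA total (others 1.59% to 3.50%).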

How the results depend on the processing

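The count of 0 loci called between the siRNAs held under all alternatives, with adjusted p between 0.157 and 1.00 over loci and alternatives. The number at an unadjusted p under 0.05 became 1 (snRNA12, lower) with depth as a covariate, and was 0 to 1 without single brains, with 1 (snRNA12) without CrzR siRNA replicate 6, where 10% of all features passed. The cause was not tested. Differences of medians turned the sign for the share of snRNA17 (0.197 percentage points) and for the total without it (-0.23, log2). Without single brains the differences ran from -1.69 to 0.237 and from -0.19 to 0.24. Scaling by library size alone moved the median log2 fold change of all features from -0.018 to 0.0996 and that of the 12 loci from -0.22 to -0.048, and turned the sign for snRNA28 (0.045) and snRNA34 (0.13). For snRNA34 it also turned with limma voom (0.20), depth as a covariate (0.25) and groups of 3 replicate numbers as a block (0.13). With the internal reference number series as a term the values were 0.011 for snRNA26, 0.080 for snRNA28, 0.055 for snRNA31 and 0.17 for snRNA34. The cause was not tested. Without single brains, log2 fold changes ran from -0.63 to -0.18 for snRNA12, -1.22 to -0.14 for snRNA3, -0.97 to 0.056 for snRNA15, -0.83 to 0.17 for snRNA16, -0.83 to 0.20 for snRNA17, -0.80 to 0.16 for snRNA22, -0.18 to 1.40 for snRNA24, -0.62 to 0.16 for snRNA26, -0.64 to 0.35 for snRNA28, -0.69 to 0.17 for snRNA30, -0.68 to 0.16 for snRNA31 and -0.46 to 0.36 for snRNA34. Of 9 same-numbered pairs of brains, 3 correlated over 0.1, and 3 of the 18 brains were closest to their own number. With the replicate block 0 loci were called, snRNA34 turned to 0.14, snRNA24 was at 0.32, and exact p was 0.598 for the share of snRNA17 and 0.941 for the total without it. Called against depth were 11 or 12 of 12 loci without single brains, with 48.7% to 54.2% of all features, 8 of 8 with a mean of at least 5 CPM, with 62.7% of all features, and 13 of 27 with no filter, where 36.9% of all features were called. Counts under about 50 over all brains limit the other loci.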
